A study of Mus musculus with 18 samples.

Results

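The genes described here are Myc and 39 genes of ribosome biogenesis, the nucleolar work of making ribosomal RNA and assembling it with proteins. They were given as a list of 40 symbols, grouped by function with no measured value in the rule, and each was read from its brightest probe. Of the 40, 34 stand on the array under the listed symbol or an older form of it, and 6 (Polr1a, Polr1b, Polr1c, Rrp9, Rrp12 and Dkc1) were found through the probe's RefSeq accession. All 40 were among the 15500 genes tested, of 21307 named genes on the array, and all 40 were well above background on every array.

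The cells were bone marrow-derived macrophages of C57BL6/J mice aged 8 to 12 weeks, grown in human CSF1 at 200 ng/ml, with Irf4-/- cells compared with cells of heterozygous Irf4+/- littermates. On day 7 they were left without IL-4 for 18 h (mock) or treated with IL-4 (10 ng/ml), either for 4 h or for 18 h. Each of these 6 groups holds 3 samples, 1 from each of 3 independent experiments named A, B and C, and each sample pools cells of several animals. The control genotype still carries 1 intact Irf4 allele. Mock cells were taken at 18 h only. At 4 h against mock, and at 18 h against 4 h, the effects of IL-4 and of time in culture therefore cannot be told apart. RNA was measured on 18 single-colour Agilent arrays. In bulk RNA, a change in the mix of cells and a change of RNA per cell cannot be told apart.

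Ribosomes are built in the nucleolus. RNA polymerase I transcribes a long precursor there, small nucleolar ribonucleoproteins guide its chemical modification, and processing factors cut it and fold it into the small and the large subunit. Myc is a transcription factor that pairs with Max, binds the E-box CACGTG and its variants, and is known for raising this whole programme in growing cells. IL-4 acts on macrophages through STAT6 and drives their alternative activation, and Irf4 encodes one of the transcription factors that it induces.

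Because Myc and Max bind CACGTG, the promoters of the members were read from RefSeq, build GRCm38.p6, from 250 bases before to 50 bases after the annotated start. Promoters of 33 members were found, and those of Myc, Bop1, Rrp12, Rrs1, Gnl2, Fbl and Npm1 were not read. The motif reads the same on both strands. It stood in 7 of the 33 promoters, or 21.2%, in 10.9% of the 11691 tested genes with a promoter, and in 8.09% of all 27025 promoters. These 7 sites are shown 5′ to 3′ on the gene's strand, with the E-box in capitals and up to 12 bases on each side within the promoter window, because they are the letters that a Myc and Max pair could read.
Imp4: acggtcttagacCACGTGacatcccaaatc
Mybbp1a: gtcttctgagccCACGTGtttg
Nop2: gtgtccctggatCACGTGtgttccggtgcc
Pes1: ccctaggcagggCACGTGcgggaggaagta
Tsr1: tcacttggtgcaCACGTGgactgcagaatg
Utp20: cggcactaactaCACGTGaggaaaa
Wdr43: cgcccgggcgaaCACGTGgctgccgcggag
In GRCm38.p6 the Imp4 stretch lies at chr1:34439696-34439725, Mybbp1a at chr11:72441355-72441376, Nop2 at chr6:125131811-125131840, Pes1 at chr11:3963965-3963994, Tsr1 at chr11:74898092-74898121 and Wdr43 at chr17:71616220-71616249, all on the plus strand. That of Utp20 lies at chr10:88826765-88826789 on the minus strand. The E-box begins before the start in Imp4 and Nop2 and after it in the other 5. The 7 members with the motif had a median log2 change of 0.67 after 4 h of IL-4, with a range of 0.58 to 1.18, and the 26 without it had a median of 0.78, with a range of 0.06 to 1.66. A match is a run of letters and not a measured binding site.

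Levels below are the log2 of a probe's intensity minus the array's 75th percentile, and changes are differences of such levels. Errors beside a change are standard errors of the limma fit over all 18 arrays, 3 per group. A gene rose or fell when its p-value, adjusted by Benjamini and Hochberg over the 15500 genes, was under 0.05. Each comparison was fitted without and with the experiment letter as a block, because the letters name independent experiments. With the block, each treated sample is read against the other samples of its own experiment. The samples of 1 letter did not share 1 slide. In experiment C, Irf4-/- mock was on another slide than Irf4-/- 4 h and 18 h, and Irf4+/- mock on another than Irf4+/- 18 h. The letter block does not remove these slide differences. The change itself is the same in both fits.

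After 4 h of IL-4, Myc and the ribosome biogenesis genes stood higher in both genotypes. All 40 members had a change above 0 in Irf4+/- cells, with a median of 0.78, and all 40 in Irf4-/- cells, with a median of 0.765. The median change over all genes tested was -0.02 and 0.08 in the same comparisons. Averaged over the genotypes, the members' median was 0.78 and the range ran from 0.06 for Polr1a to 1.66 for Dkc1. The 40 members were higher than the mock sample of their own experiment and genotype in nearly every case: 39 of them, all but Polr1a, were higher in 6 of 6 such matched sets, where 22.6% of all genes were. Within the sets, the members' median lay between 0.545 in Irf4-/- B and 1.002 in Irf4-/- A.

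Averaged over the genotypes, 16 members rose at 4 h without the block, where 5.89% of all genes rose, and 39 rose with it, where 17.1% of all genes did. All 16 were among the 39, and Polr1a was the member not called. In Irf4+/- cells alone 3 members rose without the block (2.33% of all genes) and 29 with it (10%). In Irf4-/- cells alone 2 rose without the block (2.22%) and 32 with it (10%). Over both genotypes no member fell at 4 h in either fit, where 5.3% of all genes fell without the block and 14.7% with it. The count of 16 changed with the experiment left out: it was 3 without A, 18 without B and 2 without C. In the full fit 913 of all genes rose and 822 fell. Without A 1593 genes were called in either direction, and without C 525. The cause of these changes was not tested. With the block it went from 39 to 32, 33 and 35 without A, B and C.

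**Figure D1:**
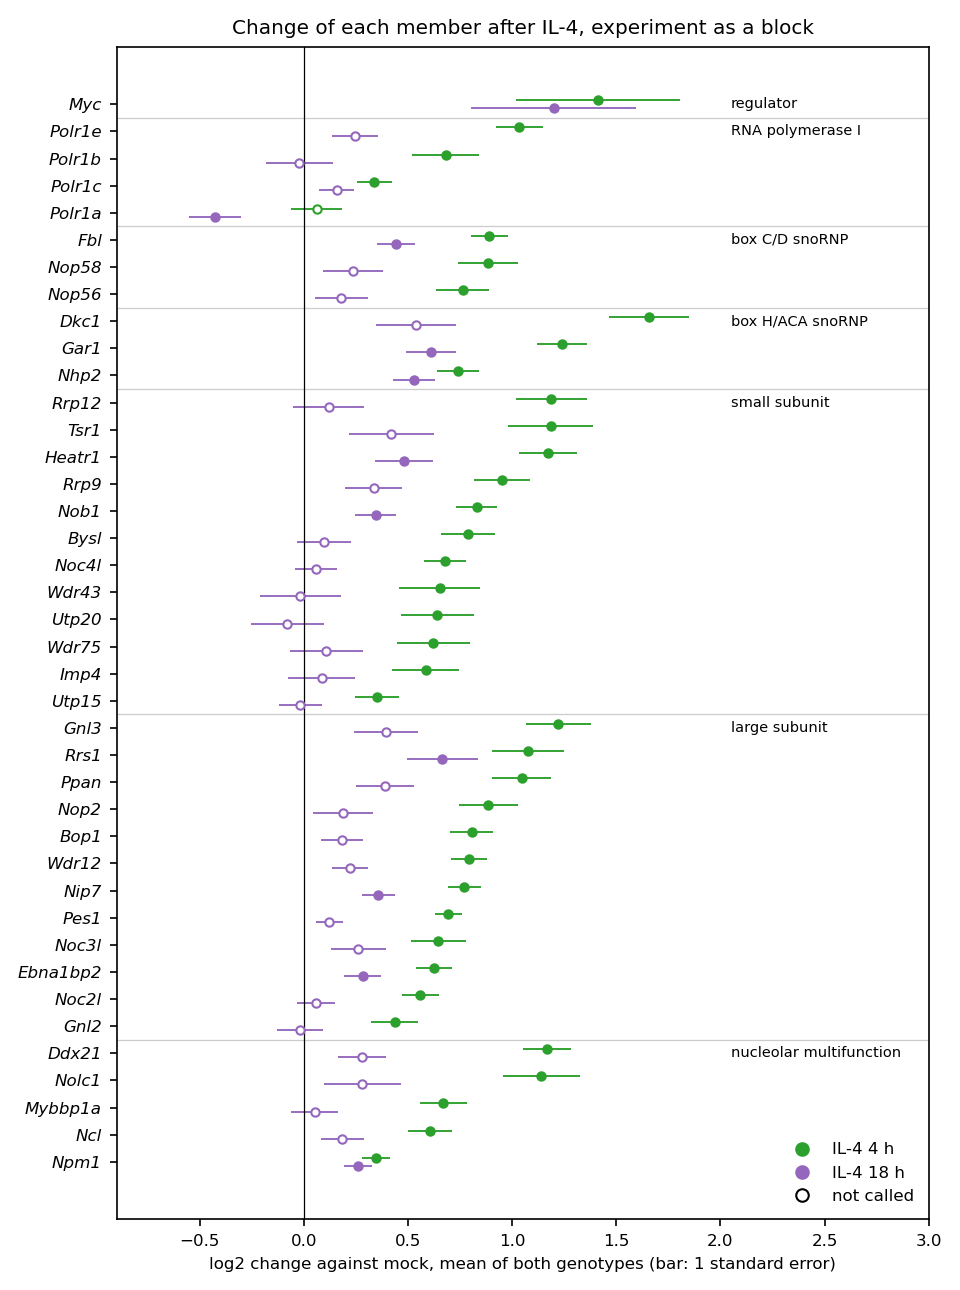
Log2 change against mock (x axis, mean of both genotypes) of each of the 40 members, ordered by role, after 4 h (green) and 18 h (purple) of IL-4. Bars are 1 standard error of the fit with the experiment as a block, and open points were not called in that fit. At 4 h all points but that of Polr1a are filled, from 0.34 for Polr1c to 1.66 for Dkc1, and at 18 h most points lie nearer to 0.

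Myc encodes the transcription factor itself. Its level was 0.31, -1.93 and 1.87 in mock Irf4+/- cells of experiments A, B and C, 2.26, -0.44 and 3.05 after 4 h of IL-4, and 1.69, -0.06 and 2.91 after 18 h. Myc in Irf4-/- cells was at 2.01, 0.94 and 1.31 in mock, 3.38, 1.75 and 2.96 at 4 h, and 2.94, 1.72 and 2.51 at 18 h. Experiment B of the Irf4+/- cells lay far below the other 2, so the groups overlapped, yet every experiment went up from mock in both genotypes.

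The matched differences of Myc at 4 h ran from 0.81 to 1.96, and those at 18 h were above 0 in 6 of 6 sets as well. Averaged over the genotypes, Myc changed by 1.41 ± 0.70 at 4 h (2.66-fold), which was not called without the block (adjusted p = 0.259). With the block the standard error was 0.395 and Myc rose (adjusted p = 0.0151). In each genotype alone it was not called with the block either, at 1.54 ± 0.56 in Irf4+/- cells (adjusted p = 0.076) and 1.28 ± 0.56 in Irf4-/- cells (adjusted p = 0.134). All 3 kept Myc probes gave the same direction, and the 10 spots of the probe used differed on an array by an SD of 0.0475 to 0.109.

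Of the 12 genes listed as partners and relatives of Myc, the median change at 4 h was 0.04, close to the 0.039 of all genes. Mxd1, whose protein competes with Myc for Max, fell by 0.71 (standard error 0.19, adjusted p = 0.0275; 0.00109 with the block). With the block Mycn and Mlxip rose, by 1.13 and 0.30, and Mnt and Mycl fell, by 0.26 and 0.91; these 4 are named after their values were seen. With the block 2 of the 12 thus rose, near the 17.1% of all genes that did, and 3 of the 12 fell, beside 14.7% of all genes. Max, the partner itself, was at 0.41 ± 0.17 and was called in neither fit (adjusted p = 0.168, and 0.0752 with the block).

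RNA polymerase I makes the ribosomal RNA precursor, and its 4 listed subunits had changes from 0.06 to 1.03 at 4 h. Polr1e, a subunit particular to this polymerase, was at -1.79, -2.33 and -1.88 in mock Irf4+/- cells, -0.40, -1.68 and -0.80 at 4 h, and -1.27, -2.35 and -1.58 at 18 h. Polr1e in Irf4-/- cells was at -1.89, -2.28 and -1.82 in mock, -0.42, -1.49 and -0.99 at 4 h, and -1.43, -2.12 and -1.78 at 18 h. Every 4 h sample lay above every mock sample, while the 18 h samples overlapped with mock. Polr1e rose by 1.03 ± 0.26 at 4 h (adjusted p = 0.0157; 1.43e-05 with the block).

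Polr1b, which forms the active centre with Polr1a, changed by 0.68 ± 0.24 at 4 h and rose with the block only (adjusted p = 0.00562). Polr1c, a subunit shared with RNA polymerase III, changed by 0.34 ± 0.23 and likewise rose with the block only (adjusted p = 0.00719).

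Polr1a, the largest subunit, was the member not called at 4 h in either fit. Its level in Irf4+/- cells was 2.40, 1.80 and 2.61 in mock, 2.71, 1.72 and 2.66 at 4 h, and 2.10, 1.43 and 2.22 at 18 h. Polr1a in Irf4-/- cells was at 2.72, 2.36 and 2.68 in mock, 3.10, 2.22 and 2.53 at 4 h, and 2.39, 1.93 and 1.96 at 18 h. At 4 h it was higher than mock in 3 sets and lower in 3, and at 18 h it was below mock in all 6, where 15.4% of all genes were.

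The change of Polr1a at 18 h was -0.43 ± 0.23 (adjusted p = 0.325), and it fell with the block (adjusted p = 0.0189), the only member to fall against mock. A dimmer second probe of Polr1a gave -0.22 at 4 h and -0.44 at 18 h. Among 16 other genes of RNA polymerase I transcription, the median change at 4 h was 0.21, with 1 gene rising without the block (5.89% of all genes) and 6 with it (17.1%). The first was Rrn3, which carries the polymerase to the promoter, at 0.58 ± 0.15 (adjusted p = 0.0196).

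**Figure D2:**
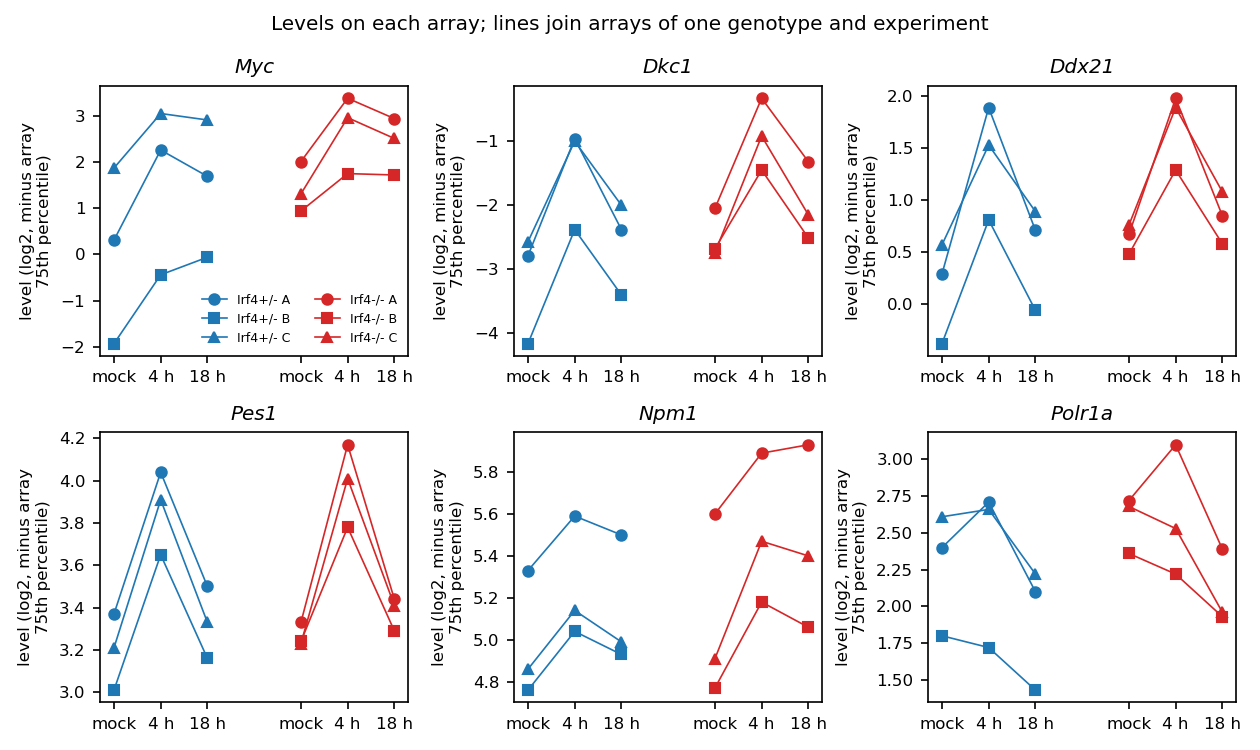
Level of Myc, Dkc1, Ddx21, Pes1, Npm1 and Polr1a on each of the 18 arrays (y axis, log2 scale, relative to the 75th percentile of that array; each panel has its own range), for Irf4+/- (blue) and Irf4-/- (red) cells in mock, 4 h and 18 h of IL-4. Lines join the arrays of 1 experiment (circle A, square B, triangle C): Dkc1, Ddx21 and Pes1 peak at 4 h in each line, Myc stays up at 18 h, and Polr1a ends below its mock value in all 6 lines.

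The small nucleolar ribonucleoproteins modify ribosomal RNA. In the box C/D particles, which add methyl groups, Fbl is the methyltransferase and Nop56 and Nop58 hold the particle together. Fbl was at 5.49, 4.30 and 5.04 in mock Irf4+/- cells, 6.48, 5.12 and 5.82 at 4 h, and 6.07, 4.58 and 5.37 at 18 h. Fbl in Irf4-/- cells was at 5.49, 4.76 and 5.17 in mock, 6.59, 5.56 and 6.03 at 4 h, and 6.10, 5.13 and 5.66 at 18 h. The samples of experiment B lay lowest in each group, so the groups overlapped, but the matched differences at 4 h were close to each other, from 0.77 to 1.10.

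Fbl changed by 0.89 ± 0.31 at 4 h (adjusted p = 0.0887) and rose with the block (standard error 0.09, adjusted p = 8.76e-06). Nop56 and Nop58 changed by 0.76 ± 0.25 and 0.88 ± 0.50, and both rose with the block only (adjusted p = 0.000518 and 0.00043). A dimmer second probe of Nop56 gave only 0.20 at 4 h and -0.23 at 18 h, beside 0.18 at 18 h for the probe used. Over 18 members with further kept probes, 23 of 24 such probes had the same sign at 4 h as the probe used.

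In the box H/ACA particles, which turn uridine into pseudouridine, Dkc1 is the enzyme and Gar1 and Nhp2 are core proteins. Dkc1 had the highest change of all members at 4 h. It was at -2.79, -4.16 and -2.57 in mock Irf4+/- cells, -0.96, -2.38 and -1.0 at 4 h, and -2.38, -3.40 and -2.00 at 18 h. In Irf4-/- cells it was -2.05, -2.68 and -2.74 in mock, -0.33, -1.45 and -0.92 at 4 h, and -1.32, -2.51 and -2.15 at 18 h. Within each genotype, the 4 h samples lay above all mock samples.

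Dkc1 rose by 1.66 ± 0.36 at 4 h, or 3.16-fold (adjusted p = 0.00751; 2.79e-05 with the block). Gar1 rose by 1.24 ± 0.37 (adjusted p = 0.0427; 6.22e-06 with the block). Nhp2 changed by 0.74 ± 0.37 and rose with the block only (adjusted p = 0.0001).

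The small subunit group holds 12 factors of the processome and of later steps of maturation. Its median change at 4 h was 0.73, with 4 members rising without the block (Heatr1, Rrp12, Tsr1 and Nob1) and 12 of 12 with it. Heatr1, which links transcription of the precursor to its processing, was at 0.42, 0.63 and 1.14 in mock Irf4+/- cells, 1.44, 1.67 and 2.59 at 4 h, and 0.86, 1.01 and 1.73 at 18 h. Heatr1 in Irf4-/- cells was at 0.92, 0.82 and 0.93 in mock, 2.15, 1.86 and 2.18 at 4 h, and 1.43, 1.21 and 1.52 at 18 h. Its 4 h samples all lay above its mock samples, and it rose by 1.17 ± 0.20 (adjusted p = 0.00134; 3.32e-05 with the block).

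Rrp12, a factor in export of the small subunit precursor, was at -2.88, -3.15 and -1.94 in mock Irf4+/- cells, -1.55, -2.08 and -0.72 at 4 h, and -2.44, -3.07 and -1.68 at 18 h. Rrp12 in Irf4-/- cells was at -2.50, -2.62 and -2.21 in mock, -1.15, -1.43 and -1.24 at 4 h, and -2.25, -2.70 and -2.45 at 18 h. Its samples were near mock at 18 h in both genotypes. Rrp12 rose by 1.19 ± 0.27 at 4 h (adjusted p = 0.00982; 0.000155 with the block).

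Tsr1, which binds the late small subunit precursor, rose by 1.18 ± 0.34 (adjusted p = 0.0332), and Nob1, the nuclease that makes the end of the mature small subunit RNA, rose by 0.83 ± 0.25 (adjusted p = 0.0488). The other 8 rose with the block only, from 0.35 for Utp15 to 0.95 for Rrp9. The matched differences of Utp15 ran from 0.02 (Irf4-/- C) to 0.77 (Irf4-/- A).

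The large subunit group also holds 12 factors, with a median change of 0.78 at 4 h. Without the block 6 rose (Pes1, Bop1, Gnl3, Nip7, Nop2 and Noc3l), and with it 12 of 12. Pes1, Bop1 and Wdr12 form 1 complex that is needed to mature the large subunit RNAs. Pes1 was at 3.37, 3.01 and 3.21 in mock Irf4+/- cells, 4.04, 3.65 and 3.91 at 4 h, and 3.50, 3.16 and 3.33 at 18 h. Pes1 in Irf4-/- cells was at 3.33, 3.24 and 3.23 in mock, 4.17, 3.78 and 4.01 at 4 h, and 3.44, 3.29 and 3.41 at 18 h.

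The matched differences of Pes1 at 4 h lay between 0.54 and 0.84, and no 4 h sample overlapped with mock or with 18 h. Pes1 rose by 0.69 ± 0.11 (adjusted p = 0.000805; 4.19e-06 with the block). Its partner Bop1 rose by 0.80 ± 0.19 (adjusted p = 0.0109). Wdr12 changed by 0.79 ± 0.27 and rose with the block only (adjusted p = 1.64e-05).

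The nucleolar GTPase Gnl3 rose by 1.22 ± 0.36 (adjusted p = 0.0385), and its relative Gnl2 changed by 0.44 ± 0.15 and rose with the block only (adjusted p = 0.00898). Nop2, an RNA methyltransferase whose promoter stretch is shown above, rose by 0.88 ± 0.25 (adjusted p = 0.0346). Rrs1, which helps to load a small ribosomal RNA onto the large subunit precursor, was at 0.20, -0.65 and 0.54 in mock Irf4+/- cells, 1.21, 0.04 and 1.79 at 4 h, and 0.79, -0.11 and 1.22 at 18 h. Rrs1 in Irf4-/- cells was at 1.22, -0.01 and 0.40 in mock, 2.43, 0.81 and 1.87 at 4 h, and 1.80, 0.48 and 1.51 at 18 h. The groups of Rrs1 overlapped widely, and its change of 1.08 ± 0.39 was called with the block only (adjusted p = 0.000354).

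The last 5 members are abundant nucleolar proteins with several tasks. Ddx21, an RNA helicase that acts in transcription and modification of the precursor, was at 0.29, -0.38 and 0.57 in mock Irf4+/- cells, 1.89, 0.81 and 1.53 at 4 h, and 0.71, -0.06 and 0.89 at 18 h. Ddx21 in Irf4-/- cells was at 0.67, 0.48 and 0.76 in mock, 1.98, 1.29 and 1.89 at 4 h, and 0.85, 0.58 and 1.08 at 18 h. Its 4 h samples all lay above its mock samples, and it rose by 1.17 ± 0.23 (adjusted p = 0.00364; 6.96e-06 with the block).

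Nolc1, a carrier of small nucleolar ribonucleoproteins, rose by 1.14 ± 0.30 (adjusted p = 0.0228), and Mybbp1a rose by 0.67 ± 0.19 (adjusted p = 0.0353). Ncl, which encodes nucleolin, changed by 0.61 ± 0.24 and rose with the block only (adjusted p = 0.000637). Npm1, which encodes nucleophosmin, was at 5.33, 4.76 and 4.86 in mock Irf4+/- cells, 5.59, 5.04 and 5.14 at 4 h, and 5.50, 4.93 and 4.99 at 18 h. Npm1 in Irf4-/- cells was at 5.60, 4.77 and 4.91 in mock, 5.89, 5.18 and 5.47 at 4 h, and 5.93, 5.06 and 5.40 at 18 h. Its steps were small but alike: the matched differences at 4 h lay between 0.26 and 0.56, and the change of 0.35 ± 0.21 (adjusted p = 0.372) was called with the block (standard error 0.07, adjusted p = 0.00175).

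**Figure D3:**
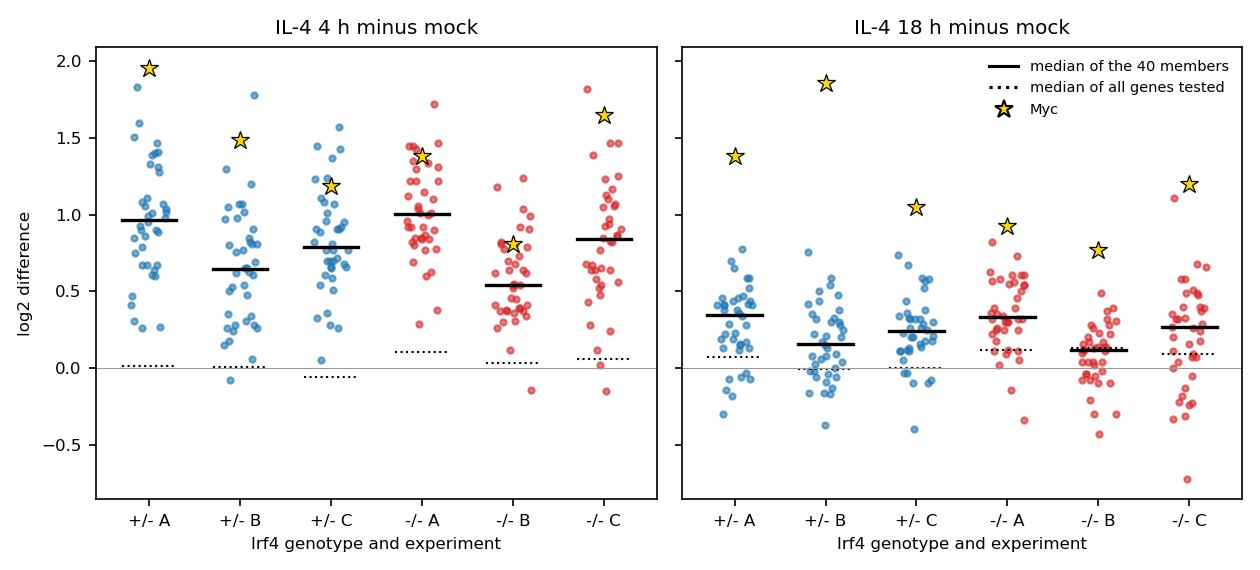
Log2 difference from mock (y axis) of each member in each of the 6 matched sets of 1 genotype and experiment (x axis), after 4 h (left) and 18 h (right) of IL-4. Solid lines are the members' medians, dotted lines the medians of all genes tested, and stars Myc. At 4 h the members' medians lie between 0.545 and 1.002, and at 18 h between 0.12 and 0.35, where Myc lies above the members' median in all 6 sets.

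At 18 h of IL-4 most members stood nearer to mock than at 4 h. The 4 h samples also differed from the mock and 18 h samples in time in culture. IL-4 time and culture time cannot be told apart in this step, nor in the shares left at 18 h below. The members' median change was 0.25 in Irf4+/- cells, 0.22 in Irf4-/- cells and 0.23 over both, beside 0.02, 0.12 and 0.08 over all genes. Between mock and 18 h, 20 of the 40 members were higher in 6 of 6 matched sets, where 24.2% of all genes were. In limma without the block no member was called at 18 h, in either genotype or over both. Of all genes, 2.12% rose and 2.02% fell in Irf4+/- cells, 2.13% rose and 1.42% fell in Irf4-/- cells, and 5.06% rose and 4.84% fell over both. At an unadjusted p under 0.05 there were 0, 0 and 1 members, with no share of all genes given at that threshold.

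With the block, 10 members rose and 1 fell over both genotypes, where 18% of all genes rose and 12.3% fell. The 10 were Myc, Fbl, Gar1, Nhp2, Nob1, Heatr1, Rrs1, Nip7, Ebna1bp2 and Npm1, and the 1 was Polr1a. In Irf4+/- cells alone 3 rose with the block (7.74% of all genes), and in Irf4-/- cells 4 (11.7%). With another background correction (normexp), the count of 11 became 2, and 19 of the 40 members lay above the median of all genes, which that correction moved to 0.15.

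Of the members called at 4 h, Myc had the largest share of its change left at 18 h. It stood at 1.20 ± 0.70 (adjusted p = 0.393; 0.0356 with the block), which is 85% of its log2 change at 4 h. Over the 39 members called at 4 h, the median share of the change left at 18 h was 26.8%, and 4 of them kept over 50%: Myc, Npm1 (75.3%), Nhp2 (71.4%) and Rrs1 (61.8%). At the other end Wdr43, Polr1b, Gnl2, Utp15 and Utp20 were slightly below mock, with changes between -0.08 and -0.02 that were not called.

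Nhp2 was at 3.19, 1.68 and 2.78 in mock Irf4+/- cells, 3.94, 2.59 and 3.29 at 4 h, and 3.96, 2.19 and 3.10 at 18 h. Nhp2 in Irf4-/- cells was at 3.34, 2.41 and 2.74 in mock, 4.19, 2.96 and 3.62 at 4 h, and 3.96, 2.69 and 3.42 at 18 h. Each 18 h sample lay above the mock sample of its own experiment. Nhp2 changed by 0.53 ± 0.37 at 18 h and rose with the block only (adjusted p = 0.00154), while Dkc1, of the same particle, changed by 0.54 ± 0.36 and was called in neither fit (adjusted p = 0.0516 with the block).

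Set directly against 4 h, all 40 members were lower at 18 h in each genotype, with a median of -0.58 in Irf4+/- and -0.59 in Irf4-/- cells, beside 0.025 and 0.05 over all genes. This comparison and those against mock share samples, so they are not independent. It also sets cells with different times in culture against each other, which cannot be told apart from the time with IL-4. Of the members, 36 were lower at 18 h in 6 of 6 matched sets, where 15.8% of all genes were. Over both genotypes 3 members fell without the block (2.4% of all genes) and 33 with it (10.9%).

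The 3 were Pes1, at -0.57 ± 0.11 (adjusted p = 0.00852), Rrp12, at -1.07 ± 0.27 (adjusted p = 0.0338), and Ddx21, at -0.89 ± 0.23 (adjusted p = 0.0384). Dkc1 had the lowest value, at -1.12 ± 0.36, and fell with the block (adjusted p = 0.00122). The 7 members that did not fall with the block were Myc, Polr1c, Nhp2, Wdr75, Rrs1, Noc3l and Npm1. Myc was at -0.21 ± 0.70 (adjusted p = 0.959; 0.752 with the block), and the sign of this value turned when single arrays were left out. In 1 genotype alone no member fell without the block (0.6% of all genes in Irf4+/- and 0.239% in Irf4-/- cells), with 8 and 9 members at an unadjusted p under 0.05, and with the block 22 fell in Irf4+/- cells (6.33% of all genes) and 17 in Irf4-/- cells (3.66%).

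The 2 genotypes were compared in each condition and in their response. The members stood slightly higher in Irf4-/- cells: the median difference, Irf4-/- minus Irf4+/-, was 0.27 in mock, 0.31 after 4 h and 0.27 after 18 h, with 38, 37 and 37 of 40 members above 0, beside 40.5%, 47.3% and 53.7% of all genes. No member was called in limma in any condition, without or with the block. Of all genes, 0%, 0% and 0.0258% were called in mock, at 4 h and at 18 h without the block, and 0.0323%, 0.0258% and 0.439% with it. At an unadjusted p under 0.05 there were 0, 0 and 0 members without the block and 11, 13 and 13 with it. The shares just given are for adjusted p. The share of all genes at the unadjusted threshold is not given here, so these counts are not read as a result.

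The difference varied with the experiment. In mock cells the members' median was 0.34 in experiment A and 0.49 in B, but 0.01 in C, with 35, 39 and 21 of 40 members above 0. At 4 h it was 0.39, 0.46 and -0.01, and at 18 h 0.40, 0.40 and -0.04. Myc followed the same order in mock, at 1.70 in A, 2.87 in B and -0.55 in C, and its mean difference of 1.34 ± 1.00 was not called (adjusted p = 1; 0.332 with the block). In every condition the genotypes lay on different slides in A, B and C, and in A also on different scan days. Genotype and slide therefore cannot be told apart within a condition of any experiment.

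The response to IL-4 did not differ detectably by genotype for any member. The median difference of the response, Irf4-/- minus Irf4+/-, was -0.03 at both 4 h and 18 h, and the members' values ran from -0.27 (Ppan) to 0.28 (Ncl) at 4 h and from -0.46 (Myc) to 0.23 (Ncl) at 18 h. No gene of the 15500 (0%) was called for this difference, and no member had an unadjusted p under 0.05, without or with the block. The median standard error of these values was 0.51 without the block and 0.25 with it. Differences of that size, and also clearly larger ones, could not be called after adjustment over the 15500 genes. For Myc the difference was -0.26 ± 1.41 at 4 h.

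Other genes of the pathway had smaller median changes at 4 h, when 5.89% of all genes rose without the block and 17.1% with it. The members and the lists were chosen with earlier results of these data known, so this order is a description and not a test. Of 50 other small subunit processing factors, 11 rose without the block and 38 with it, none fell, and the median change was 0.42; the 3 with the smallest p were Nol6 (1.06 ± 0.16), Krr1 (1.00 ± 0.17) and Wdr46 (1.62 ± 0.30), adjusted p = 0.000467, 0.00104 and 0.00213. Of 45 other large subunit factors, 6 rose without and 30 with the block, with a median of 0.46, among them Rrp8 (1.15 ± 0.18, adjusted p = 0.00056) and Nop16 (1.24 ± 0.31, adjusted p = 0.0167). Among 12 other snoRNP and assembly factors 3 and 7 rose, median 0.50, and among 14 subunits and cofactors of the RNA exosome, which trims the precursors, 1 and 11 rose, median 0.41. All 4 lists were near mock at 18 h, with medians of 0.09, 0.13, 0.06 and 0.16.

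The genes of the structural proteins of the ribosome were counted as lists of their own. Of 77 cytosolic ribosomal protein genes, 12 rose at 4 h and 68 at 18 h with the block (0 and 4 without it), with medians of 0.25 and 0.43. Of all genes, 17.1% rose at 4 h and 18% at 18 h with the block, and 5.89% and 5.06% without it, so the 12 of 77 lay below the background, the 68 above it and the 4 near it. The median of 18 h against 4 h was 0.19, with 9 of 77 rising with the block, near the 11.3% of all genes, and it turned to -0.05 under normexp. Of 75 mitochondrial ribosomal protein genes, 49 rose at 4 h and 31 at 18 h with the block (3 and 2 without it, both below the background), with medians of 0.31 and 0.21. Mrpl15 led them at 4 h, at 1.14 ± 0.15 (adjusted p = 0.000109).

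Beyond the ribosome, with the same shares of 17.1% and 5.89% over all genes at 4 h, 22 of 41 translation initiation and elongation factors rose at 4 h with the block and 4 without it (median 0.29, Eif2b2 0.96 ± 0.16, adjusted p = 0.00106). Among 22 cytosolic aminoacyl-tRNA synthetases, 9 and 2 rose (median 0.29, Rars 0.98 ± 0.14, adjusted p = 0.000317). RNA polymerase III, which makes transfer RNA, had 7 and 1 of 21 rising (median 0.15, Gtf3c4 1.01 ± 0.13, adjusted p = 8e-05), and the 8 subunits of RNA polymerase II alone had 4 and 1 (median 0.29). Of 43 genes of nucleotide and polyamine synthesis and growth that are known Myc targets, 27 rose and 1 fell with the block and 5 rose without it (median 0.36). Prps1, which makes the sugar donor of nucleotides, rose by 2.68 ± 0.42 (adjusted p = 0.000552), and Tfrc, the transferrin receptor, by 1.51 ± 0.26 (adjusted p = 0.00137).

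DNA replication genes went the other way. Of 41, 21 fell (14.7% of all genes) and none rose at 4 h with the block, 2 fell without it (Cdt1, at -0.87 ± 0.18, adjusted p = 0.00468, and Pold1, at -0.55 ± 0.15, adjusted p = 0.0288), near the 5.3% of all genes, and the median was -0.425. At 18 h the median was -0.14 and 3 of 41 fell with the block, below the 12.3% of all genes. Among 19 immediate early genes, which answer to many stimuli within the hour, 4 rose and 6 fell at 4 h with the block (17.1% and 14.7% of all genes), with a median of -0.09.

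**Figure D4:**
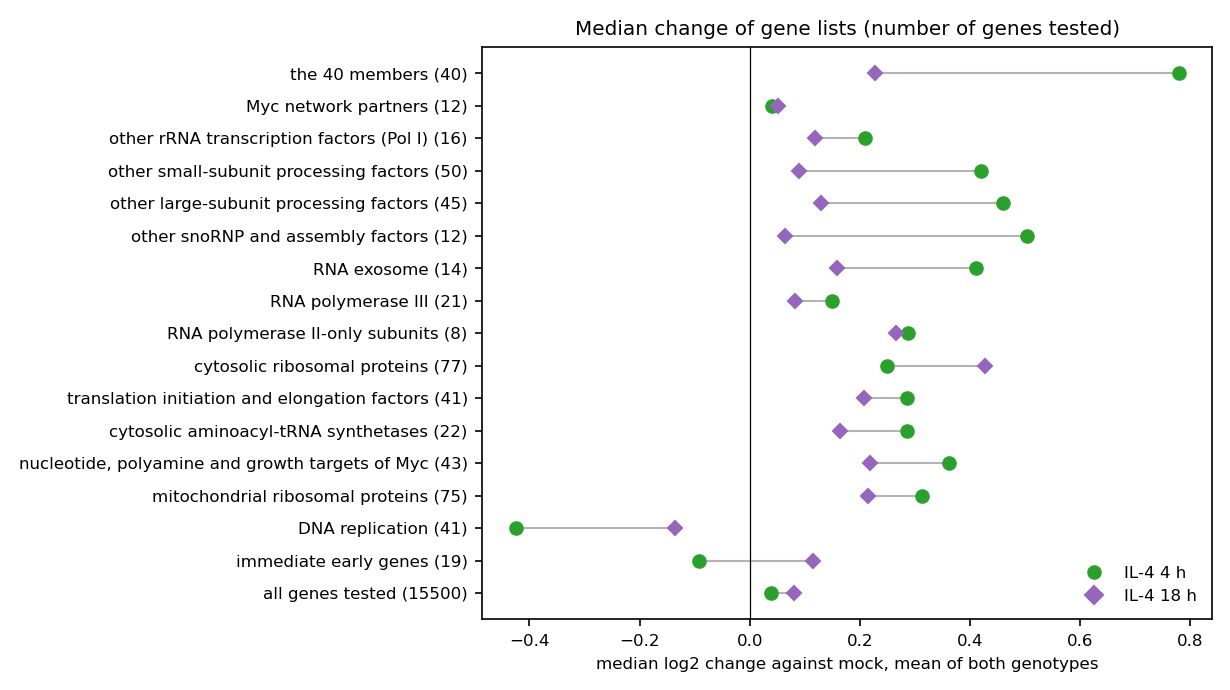
Median log2 change against mock (x axis, mean of both genotypes) after 4 h (circles) and 18 h (diamonds) of IL-4, with the number of genes tested in brackets. Shown are the 40 members, the other gene lists and all genes tested. The list of genes known to answer IL-4 (median 6.09 at 4 h) is left out. Of the sets shown, the members have the highest median at 4 h, 0.78. Members and lists were chosen with earlier results of these data known, so this order is not a test. Cytosolic ribosomal proteins have a higher median at 18 h (0.43) than at 4 h (0.25), and DNA replication genes lie below 0 at both times.

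Facts of the whole set of arrays bear on these values. The intensity at the 75th percentile ran from 719.2 to 1960.7, and 63.4% to 74.4% of spots were well above background. Of 10 genes known to answer IL-4, 10 rose at 4 h and at 18 h with the block. Of 10 macrophage markers 10 were well above background on all 18 arrays, and their summed level lay between 9.48 and 9.76 in the 6 groups. The summed level of 7 neutrophil markers, 6 of them well above background on all arrays, was 4.33, 4.36 and 4.10 in Irf4+/- mock, 4 h and 18 h and 4.71, 4.64 and 4.63 in Irf4-/-. Those of T and NK, B lineage, dendritic, basophil with mast and eosinophil, erythroid and stromal cells lay between -2.83 and 1.47, with Ebf1 and Siglech above background on no array; their part in the results was not tested. Experiment B stood apart: its mean level was the lowest of the 3 in 38 of the 40 members, with a median of 0.60 beside 1.40 in A and 1.47 in C, while the medians over all genes were -0.24, -0.19 and -0.23.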

How the data were processed

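Total RNA of 18 macrophage samples was labelled with Cy3 and hybridised to 1 Agilent array each. Per the file headers, the authors extracted each spot's intensity after background subtraction, with flags for control, outlier, saturated and background spots; per the submitters' processing notes they used Agilent Feature Extraction 9.5.1. A deposited series table of log2 values, with no account of its making in the labels, matched the scale used here after subtraction of the Irf4+/- mock array of the same letter, and served as an alternative.

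From the intensities, log2 was taken and each array's 75th percentile subtracted; control and outlier spots were left out, spots of 1 probe averaged, and probes kept when well above background on all 3 arrays of a group. Probes were named through RefSeq tables. The members and the gene lists were chosen with earlier results of these data known. Tests used limma 3.58.1 in R 4.3.3 (lmFit, eBayes, 6 group means, two-sided, Benjamini-Hochberg), tested on simulated data. All members were described; of each other list, up to 3 called genes with the smallest p at 4 h were open to naming. Tables and plots used Python 3.11.15 with pandas 2.3.3, numpy 2.4.6 and matplotlib 3.10.9.

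The letters pair the samples: the series text gives independent experiments with littermates, and the deviations of same-letter samples from their group means correlated in all 45 pairs (0.43 to 0.88). The number of arrays limits the precision. Alternatives were other scalings, background corrections, filters, blocks, array weights and left-out arrays.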

Additional observations from a re-analysis of the deposited data

How the results depend on the processing

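The counts of members called depended mainly on the block: limma's fit without it called 3, 2 and 16 at 4 h (Irf4+/-, Irf4-/- and both genotypes, the order kept below), 0, 0 and 0 at 18 h and 0, 0 and 3 for 18 h against 4 h. The 40 members stayed above 0 at 4 h over both genotypes under all scalings but quantile normalization (39 of 40). The cause of the differences was not tested. With the experiment letter as a replicate block, the counts were 29, 32 and 39 at 4 h, 3, 4 and 11 at 18 h, and 22, 17 and 33 for 18 h against 4 h. With the slide as a random block, the counts were 39, 39 and 39 at 4 h, 7, 7 and 18 at 18 h, and 28, 32 and 35 for 18 h against 4 h. Here 5078, 4147 and 6662 of all genes were called at 4 h. At 18 h they were 3465, 4252 and 6215, and for 18 h against 4 h 2936, 3463 and 5362. Myc turned to 0.0915 for 18 h against 4 h in Irf4+/- cells. When the pooled culture was the random block, the counts were 38, 38 and 39 at 4 h, 11, 11 and 18 at 18 h, and 32, 32 and 36 for 18 h against 4 h. This fit called 4794, 5372 and 7042 of all genes at 4 h. At 18 h they were 4093, 5598 and 7184, and for 18 h against 4 h 3582, 3213 and 5674. With the slide as a fixed block (added after seeing the data), the counts were 38, 37 and 39 at 4 h, 8, 8 and 17 at 18 h, and 25, 32 and 36 for 18 h against 4 h. It called 4541, 3173 and 6042 of all genes at 4 h. At 18 h they were 2735, 3642 and 5318, and for 18 h against 4 h 1969, 2773 and 4705. In the authors' deposited log2 table with the replicate block (added), the counts were 29, 32 and 39 at 4 h, 3, 4 and 11 at 18 h, and 20, 17 and 33 for 18 h against 4 h. With the replicate block and without experiment A (added, as are the 2 that follow), the counts were 15, 13 and 32 at 4 h, 0, 0 and 5 at 18 h, and 3, 1 and 16 for 18 h against 4 h. Myc turned to 0.12 for 18 h against 4 h in Irf4+/- cells. With the block and without experiment B, the counts were 19, 25 and 33 at 4 h, 0, 1 and 4 at 18 h, and 1, 3 and 24 for 18 h against 4 h. The median of the members was 0.0373 for the genotype difference of the 4 h response and 0.0287 for the genotype difference of the 18 h response. With the block and without experiment C, the counts were 21, 19 and 35 at 4 h, 1, 0 and 6 at 18 h, and 2, 1 and 20 for 18 h against 4 h. With the block and normexp (added, as are the 2 that follow), the counts were 16, 24 and 28 at 4 h, 0, 1 and 2 at 18 h, and 18, 1 and 26 for 18 h against 4 h. In this fit the median was 0.0168 at 18 h in Irf4+/- cells, -0.756 for 18 h against 4 h in Irf4+/- cells, 0.0823 for the genotype difference of the 4 h response and 0.17 for the genotype difference of the 18 h response. With the block and scaling to the median, the counts were 33, 29 and 39 at 4 h, 1, 0 and 7 at 18 h, and 17, 9 and 34 for 18 h against 4 h. In this fit the median was -0.662 for 18 h against 4 h in Irf4+/- cells and -0.129 for the genotype difference of the 4 h response. With the block and quantile normalization, the counts were 28, 30 and 38 at 4 h, 2, 2 and 10 at 18 h, and 15, 18 and 33 for 18 h against 4 h. With normexp, the counts were 0, 0 and 7 at 4 h, where 259, 238 and 823 of all genes were called. The median of the members was 0.0168 at 18 h in Irf4+/- cells, -0.756 for 18 h against 4 h in Irf4+/- cells, 0.0823 for the genotype difference of the 4 h response and 0.17 for the genotype difference of the 18 h response. With scaling to the median, the counts were 0, 0 and 11 at 4 h, and 0, 0 and 1 for 18 h against 4 h. The median of the members was -0.662 for 18 h against 4 h in Irf4+/- cells and -0.129 for the genotype difference of the 4 h response. With quantile normalization, the counts were 0, 1 and 4 for 18 h against 4 h. Without the filter on dim probes, the counts were 0, 1 and 9 at 4 h, and 0, 0 and 1 for 18 h against 4 h. At 4 h that fit called 520, 475 and 1396 of all genes. With only the groups of the contrast in the fit, the counts were 0, 3 and 13 at 4 h, and 0, 0 and 1 for 18 h against 4 h. With array weights, the counts were 2, 10 and 16 at 4 h, 0, 0 and 1 at 18 h, and 0, 1 and 2 for 18 h against 4 h. In this fit the median was 0.553 at 4 h in Irf4+/- cells, -0.245 for 18 h against 4 h in Irf4+/- cells, -0.469 for 18 h against 4 h over both genotypes, 0.246 for the genotype difference of the 4 h response, -0.217 for the genotype difference of the 18 h response and 0.000212 for the genotype difference at 18 h. Myc turned to 1.2 for 18 h against 4 h in Irf4+/- cells and 0.331 for 18 h against 4 h over both genotypes. Without experiment A (added, as are the 2 that follow), the counts were 0, 0 and 3 at 4 h, and 0, 0 and 1 for 18 h against 4 h. At 4 h 563, 516 and 1593 of all genes were called. Myc turned to 0.12 for 18 h against 4 h in Irf4+/- cells. Without experiment B, the counts were 1, 2 and 18 at 4 h, and 0, 0 and 1 for 18 h against 4 h. The median of the members was 0.0373 for the genotype difference of the 4 h response and 0.0287 for the genotype difference of the 18 h response. Without experiment C, the counts were 0, 0 and 2 at 4 h, and 0, 0 and 0 for 18 h against 4 h. At 4 h 110, 78 and 525 of all genes were called.

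With 1 array left out at a time, the counts ranged from 0 to 5 at 4 h in Irf4+/- cells, from 0 to 2 at 4 h in Irf4-/- cells, from 7 to 27 at 4 h over both genotypes and from 1 to 8 for 18 h against 4 h over both genotypes. With 1 array left out at a time, the members' median ranged from 0.544 to 1.06 at 4 h in Irf4+/- cells, from 0.00651 to 0.511 at 18 h in Irf4+/- cells, from 0.0403 to 0.384 at 18 h in Irf4-/- cells, from -0.908 to -0.342 for 18 h against 4 h in Irf4+/- cells, from -0.774 to -0.349 for 18 h against 4 h in Irf4-/- cells, from -0.723 to -0.424 for 18 h against 4 h over both genotypes, from -0.312 to 0.236 for the genotype difference of the 4 h response, from -0.305 to 0.236 for the genotype difference of the 18 h response, from 0.00704 to 0.519 for the genotype difference at 4 h and from 0.00597 to 0.468 for the genotype difference at 18 h. With 1 array left out at a time, Myc ranged from -1.15 to 0.677 for 18 h against 4 h in Irf4+/- cells, from -0.787 to 0.0293 for 18 h against 4 h in Irf4-/- cells and from -0.729 to 0.182 for 18 h against 4 h over both genotypes.

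Among the values of single members that were followed by name through the alternatives, 12 changed sign, each of them Myc for 18 h against 4 h. Counts over all members show that others turned as well. At 18 h against mock in Irf4+/- cells, 36 members lay above 0 in the fit without the block and 20 with normexp. For 18 h against 4 h in Irf4+/- cells, these counts were 0 and 3. The other alternatives (normexp without very dim spots, probes above background on all arrays, the mean of all probes of a gene, the scan day as a block, and only the 34 members under the listed names, whose counts scale with the list) moved no count by over 1.5 times. The planned fit of the authors' table without the block was not run, because its Irf4+/- mock columns are 0 throughout. The number of arrays, 3 per group, limits what can be called.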
